A study of Mus musculus and Homo sapiens with 12 samples.

Results

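The genes described are 10 in the mouse and their 10 namesakes in human: the SR splicing factors Srsf1, Srsf2, Srsf3, Srsf4, Srsf5, Srsf6, Srsf7 and Srsf11 and the SR-like factors Tra2a and Tra2b. They were picked by name as SR genes with nuclear-detained introns and found by their Ensembl identifiers, 10 of 54446 genes in the mouse count tables and 10 of 58676 in the human ones. RNA bound to chromatin (caRNA) was sequenced as fragments, either all of them (Input libraries) or those that an antibody to 5-methylcytosine (m5C) had captured (IP libraries). There were 3 Input and 3 IP libraries from each of 2 wild-type lines, 12 in all: mouse embryonic stem cells (mESC) and K562, an established human leukaemia line. The mESC were grown with LIF and the inhibitors CHIR99021 and PD0325901 and were passaged off feeder cells, and the growth label lists puromycin in the medium of the wild-type K562 cells. The paper's legends describe its genome-wide data as coming from 3 biological replicates. Nothing in the labels says that the 3 libraries of a group came from separate cultures, so p-values measure the spread between libraries, which may be technical. Groups follow the titles, although the antibody label contradicts them in 2 groups: it is empty of an antibody in mESC IP and lists anti-m5C in K562 Input.

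SR proteins bind exons through RNA recognition motifs, and their arginine- and serine-rich tails recruit the spliceosome. Their own transcripts are a textbook case of regulation by splicing. A detained intron is left in an otherwise spliced, polyadenylated transcript that then stays in the nucleus, and a poison exon is a cassette exon with an early stop codon whose inclusion sends the transcript to nonsense-mediated decay (NMD). Both lower the amount of SR protein that is made, and SR proteins can bring about both on their own transcripts. RNA held in the nucleus is part of what a chromatin fraction samples.

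The gene models held annotated retained-intron and NMD transcripts, classes that do not by themselves show that an intron is detained. The protein-coding genes set beside the members were matched for neither level nor number of transcripts. In the mouse annotation (GENCODE M21, GRCm38) 10 of 10 members had both an annotated retained-intron transcript and an NMD transcript, against 17.9% of the 17844 protein-coding genes with a coding intron and an Input count. In the human annotation (GENCODE 44, GRCh38) it was 9 of 10, SRSF6 being the exception with no retained-intron transcript, against 32.8% of 16305 such genes. The members were also compact: a median of 61.3% of the mouse gene span was exonic in at least 1 transcript, against 17.1% for the same protein-coding genes, and 53.4% against 14.4% in human. Introns kept by annotated retained-intron transcripts count as exonic here, so this share in part restates that annotation. Srsf2 was the densest at 92.6% and Srsf4 the least at 12.7%.

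In 5 of the 10 there was a cassette exon, holding the stop codon of an NMD transcript and no annotated coding sequence of a protein-coding transcript, that could be paired between the species at lengths within 5%. These exons are shown because they are the part of the genes that answers to splicing and that both species share. The exon of Srsf3 (chr17:29039454-29039909, GRCm38, plus strand; chr6:36599821-36600276, GRCh38) was 456 bp in both species and identical at every base. Those of Srsf11 (117 bp) and Tra2b (276 bp) were also 100% identical. The exon of Tra2a was 306 bp in mouse and 301 bp in human at 98.4% identity, and that of Srsf7 was 460 and 449 bp at 96.1%. The coding sequences of the same genes were less alike, at 86.8% for Srsf11, 89.1% for Tra2a, 91.7% for Tra2b, 91.9% for Srsf3 and 92.3% for Srsf7. Each stretch below runs from 18 bases before the premature stop to 9 bases after it, 5′ to 3′ on the gene strand, with the stop codon in capitals, and all 30 bases of each were the same in mouse and human (mouse position given).
Srsf3, chr17:29039467-29039496, plus strand: tctcttctcaccaccctcTGAatctgcatt
Srsf7, chr17:80205045-80205074, minus strand: cgtttgagtcagtcgcctTGAttcagaatg
Srsf11, chr3:158023301-158023330, minus strand: aaaacagcttttgaaagtTGAgagcacacc
Tra2a, chr6:49252956-49252985, minus strand: aacagaagattggtcagaTAGaagcacttg
Tra2b, chr16:22259172-22259201, minus strand: ttgaagctcaggaataagTGAagctgaaat
The counts were per gene, so the level of these exons themselves was not analysed here.

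What a count covered was read from the tables. Genes lying inside a gene of the same strand, with no shared exon, had any mESC Input count in 0.201% of 4966 cases, against 50.3% of 4550 genes lying inside a gene of the other strand, and in K562 Input it was 3.83% against 37.6%. Counting was therefore by strand and over whole gene spans, introns included, and reads in stretches shared by same-strand genes were left out. Intron reads enter the members' counts but cannot be told apart from exon reads. Whether any of them came from detained introns was not measured. SRSF1 could not be measured in K562: 6328 of its 6428 bases (98.4%) are shared with ENSG00000266086 on the same strand, and its counts were 3, 2 and 0 in Input and 0 in each IP library. K562 results below are for 9 members. Smaller shared stretches covered 16.4% of Srsf4, 9.44% of Srsf11 and 3.08% of SRSF2.

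Gene counts per library ran from 29007088 to 34752646 in mESC Input, 473398 to 592324 in mESC IP, 10477119 to 11865285 in K562 Input and 93110 to 111286 in K562 IP. A floor of 3 counts was worth up to 0.103, 6.34, 0.286 and 32.2 CPM (counts-per-million of all gene counts) in these groups, so the K562 IP libraries resolved the members least well. Of 8 mESC markers, 7 were above the floor in all Input libraries, with a summed level of 1615 to 1639 CPM (644.3 to 805.3 CPM in IP), and Sox2 was at 0. Of 8 feeder fibroblast markers 6 were above it, at 53.8 to 56.6 CPM in sum (76.0 to 120.7 CPM in IP), with Lum at 0. Of 8 K562 markers 6 were above it, at 302.4 to 312.2 CPM in sum (491.0 to 665.0 CPM in IP), with HBG2 and HBE1 at 0. Of 6 lymphoid markers 2 were above it, at 2.20 to 4.16 CPM in sum (18.5 to 53.9 CPM in IP), with MS4A1 at 0. A count of 0 need not mean absence, since reads in stretches shared by same-strand genes were left out. Such sharing was not examined for the markers. The part of other cells in the results was not tested.

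Levels of the members in Input were compared within each line as CPM per kb of merged exon. In mESC Srsf7, an SR protein with a zinc knuckle that also helps to export mRNA, was highest at 49.5 ± 0.244 (SD, n = 3), and Srsf5 followed at 48.8 ± 0.578. The 3 libraries of Srsf7 lay at 49.3, 49.4 and 49.8 and those of Srsf5 at 48.1, 49.0 and 49.2. Srsf4 (39.8 ± 0.868), Tra2a (35.4 ± 0.744) and Srsf2 (32.7 ± 1.30) were next, and no neighbours among these 5 overlapped in their libraries. Tra2b (27.2 ± 0.259) and Srsf3 (27.1 ± 0.309) overlapped, as did Srsf1 (22.6 ± 0.201) and Srsf11 (22.6 ± 0.420). Srsf6 was lowest at 21.1 ± 0.200. The highest and lowest members differed 2.35-fold per kb of exon and 7.70-fold per kb of the whole gene span, the length that the counts cover, and all 10 lay between the 89.3rd and the 97.3rd percentile of 21918 protein-coding genes.

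**Figure D1:**
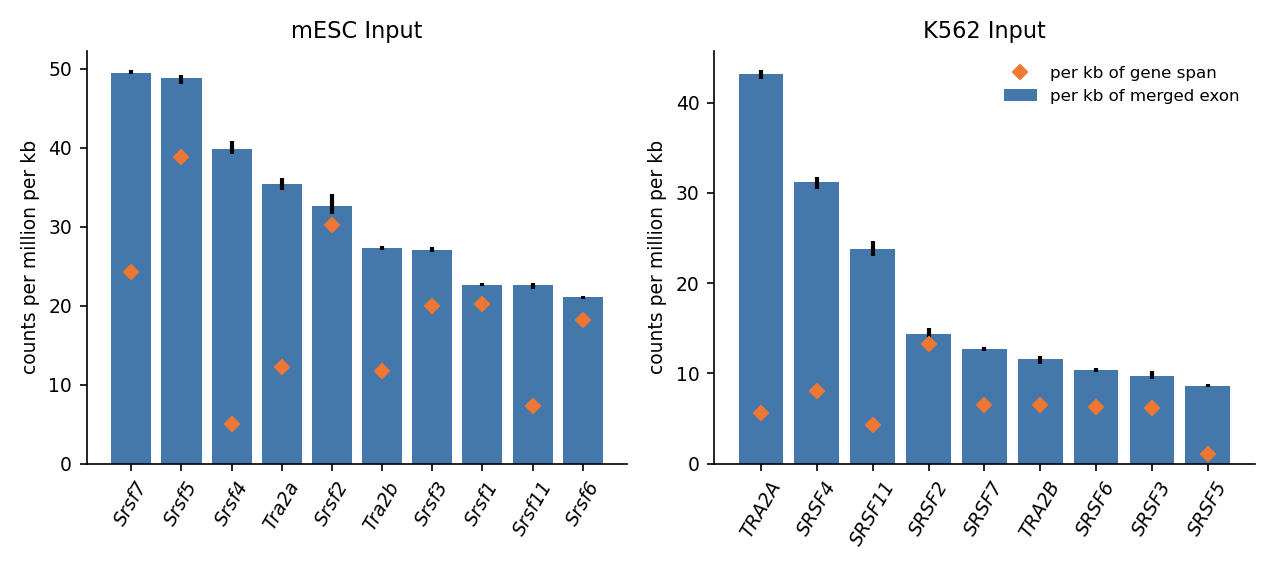
Input level of each member in mESC (left, 10 genes) and K562 (right, 9 genes), ordered by mean. Bars give CPM per kb of merged exon, black lines the range of 3 libraries, and diamonds the same counts per kb of the whole gene span; in mESC bars run from 21.1 to 49.5, in K562 from 8.64 to 43.2, and diamonds fall far under the bars for genes with long introns such as Srsf4 and SRSF5.

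In K562 the order was another and the spread wider, at 4.99-fold from highest to lowest per kb of exon and 13.0-fold per kb of span. TRA2A led at 43.2 ± 0.456, ahead of SRSF4 (31.2 ± 0.711) and SRSF11 (23.8 ± 0.814), and the 3 did not overlap. The other 6 lay between 14.4 ± 0.528 for SRSF2 and 8.64 ± 0.202 for SRSF5, and among them only SRSF6 (10.4 ± 0.257) and SRSF3 (9.70 ± 0.533) overlapped as neighbours. SRSF5, second in mESC, was last in K562. Because introns are counted, long-intron genes stand higher per kb of exon: per kb of the whole gene span Srsf4 moved from rank 3 to rank 10 in mESC (5.05 ± 0.110 CPM per kb), Srsf5 came first (38.9 ± 0.460), and in K562 SRSF2 came first (13.3 ± 0.488) and TRA2A seventh (5.57 ± 0.0588). The first rank of Srsf7 and TRA2A therefore rests on the length used. Species and annotation differ between the lines, so their levels were not tested against each other.

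The question put to the IP libraries was whether the members' RNA was taken up by the m5C pull-down more or less than its abundance. In mESC it was less for every member. Together the 10 took 0.173% to 0.175% of gene counts in the Input libraries and 0.0649% to 0.0837% in the IP libraries, ranges that do not overlap. In K562 the members took 0.101% to 0.106% in Input and 0.103% to 0.118% in IP, ranges that overlap.

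The SR proteins that shuttle between nucleus and cytoplasm, Srsf1, Srsf3 and Srsf7, were lower in mESC IP. Srsf3 (ENSMUSG00000071172.13, chr17:29032628-29043373), the smallest member of the family, had 214.4, 211.5 and 216.3 CPM in Input and 67.6, 90.1 and 76.0 CPM in IP, from 32, 53 and 45 counts. Its IP values were all far under its Input values, and its log2 IP/Input was -2.42 (SE 0.12). Srsf1 (ENSMUSG00000018379.17, chr11:88047373-88053755), the founding SR protein and a known oncogene, had 130.5, 128.3 and 128.9 CPM in Input and 80.3, 45.9 and 54.0 CPM in IP. IP replicate 1 stood above the other 2 but still below every Input library, and the log2 IP/Input was -2.11 (SE 0.16). Srsf7 (ENSMUSG00000024097.10, chr17:80200080-80207307) had 176.7, 175.2 and 175.4 CPM in Input and 61.3, 100.3 and 77.7 CPM in IP, with a log2 IP/Input of -2.09 (SE 0.13). Here and below the log2 values are edgeR coefficients after TMM scaling, which sets the trimmed mean of the log ratios of all tested genes to 0, so they are lower than the log ratio of the CPM printed beside them. They rank genes against each other within a line and were not scaled to the m5C spike-ins that the study's methods describe, so they give no absolute m5C level.

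Srsf2 and the Srsf4, Srsf5 and Srsf6 group were lower too. Srsf2 (ENSMUSG00000034120.18, chr11:116849901-116853094), which stays in the nucleus and is mutated in myeloid malignancies, had 95.6, 100.9 and 93.4 CPM in Input and 31.7, 44.2 and 43.9 CPM in IP (log2 IP/Input -2.23, SE 0.18). Srsf5 (ENSMUSG00000021134.17, chr12:80945504-80950507) had 196.3, 191.9 and 195.4 CPM in Input and 59.1, 59.5 and 55.7 CPM in IP, the tightest IP values of any member. At -2.72 (SE 0.13) it had the lowest log2 IP/Input of the 10. Srsf6 (ENSMUSG00000016921.14, chr2:162931528-162937121) had 102.3, 101.4 and 100.4 CPM in Input and 25.3, 47.6 and 55.7 CPM in IP, the first from only 12 counts (log2 IP/Input -2.17, SE 0.18). Srsf4 (ENSMUSG00000028911.16, chr4:131873617-131901706), the member with the longest span and the smallest exonic share, had 140.3, 139.7 and 145.3 CPM in Input and 84.5, 103.7 and 103.0 CPM in IP. Its log2 IP/Input of -1.51 (SE 0.13) was the highest of the 10.

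Srsf11 and the SR-like Tra2a and Tra2b followed the same direction. Srsf11 (ENSMUSG00000055436.18, chr3:158010473-158036639), which acts with U2AF, had 191.8, 186.6 and 193.3 CPM in Input and 52.8, 62.9 and 74.3 CPM in IP (log2 IP/Input -2.55, SE 0.14). Tra2a (ENSMUSG00000029817.11, chr6:49243924-49264033) had 251.1, 246.7 and 240.8 CPM in Input and 133.1, 146.2 and 118.2 CPM in IP, the highest IP level of the 10 (log2 IP/Input -1.87, SE 0.10). Its paralog Tra2b (ENSMUSG00000022858.16, chr16:22244549-22266005), a binder of GAA-rich enhancers, matched it in Input at 254.2, 250.8 and 249.7 CPM. The Tra2b IP libraries spread widest, at 52.8, 136.0 and 89.5 CPM from 25, 80 and 53 counts, and its log2 IP/Input was -2.37 (SE 0.15).

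**Figure D2:**
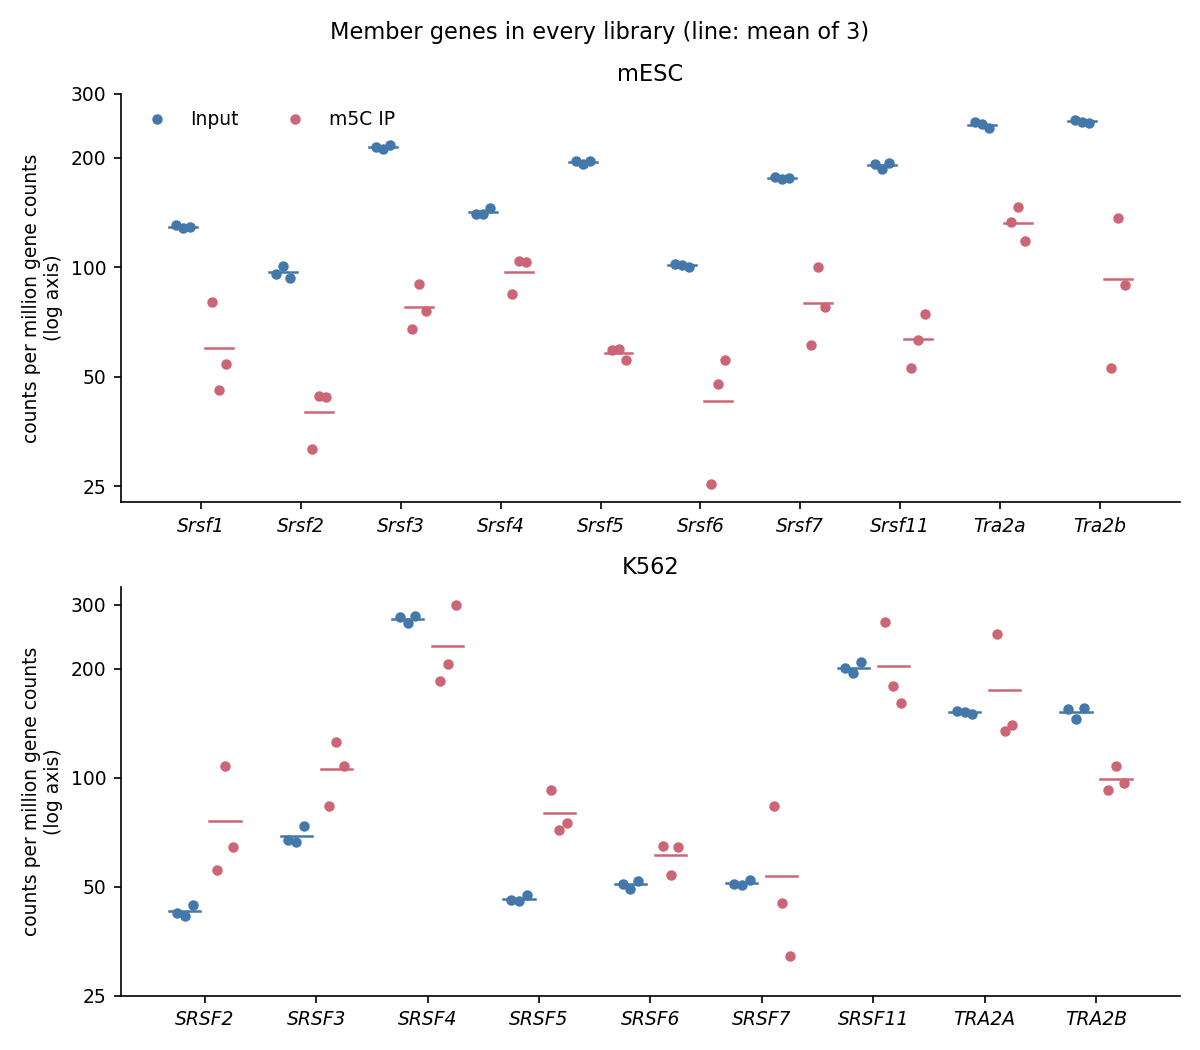
CPM (log axis) of each member in every mESC library (top, 10 genes) and K562 library (bottom, 9 genes). Blue points are the 3 Input and red points the 3 IP libraries, and short lines their means; in mESC every red point lies below every blue point of its gene, while in K562 red lies above blue for SRSF2, SRSF3, SRSF5 and SRSF6 and below it for TRA2B.

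Read as a test, 10 of 10 members were lower in mESC IP than in Input (edgeR quasi-likelihood test, Benjamini-Hochberg adjusted p at most 2.11e-08), where 42.1% of all 20244 tested genes were lower and 39.9% higher. In 10 of 10 the IP libraries lay below all Input libraries, against 27.6% of all tested genes, and in 0 above them, against 47.7%. The median log2 IP/Input of the members was -2.20 and that of all tested genes -0.17. With library size scaling alone these became -1.23 and 0.80, a shift of all genes alike that leaves the distance between the members and all genes at -2.03, and the share of all calls that were higher moved from 48.7% to 67.2%. That distance was -1.48 with the GC correction, -1.53 with the intron length correction and -0.99 when the Input counts were thinned to the depth of the IP libraries (members -0.83, all genes 0.17). With thinned Input 8 of 10 members passed the test, the exceptions being Srsf4 at 0.05 (adjusted p = 0.862) and Srsf6 at -0.70 (adjusted p = 0.0594).

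The drop was shared by other abundant genes. Median log2 IP/Input of the tested protein-coding genes fell with Input level, from 4.95 under 1 CPM to 0.97 at 1 to 10, -1.11 at 10 to 50, -1.60 at 50 to 100, -1.84 at 100 to 200 and -1.99 over 200 CPM. Input is also the denominator of the ratio, so this order is a description with no test. Genes under 1 CPM could pass the filter on low counts mostly through the IP libraries, which in part fixed their high values. Of these, 94.1% of 2999 in mESC and 100% of 369 in K562 were called higher. In mESC they count toward the 39.9% called higher and the 47.7% with IP above Input. Of the 1204 coding genes over 200 CPM 99.4% were lower in IP, and of the 1474 at 100 to 200 CPM 96.8%. The 10 of 10 is therefore close to the share at the members' own level. Within their level bins 8 of 10 members lay below the median, with Srsf4 and Tra2a above it, and 5 lay below the lower quartile: Srsf2, Srsf3, Srsf5, Srsf11 and Tra2b.

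**Figure D3:**
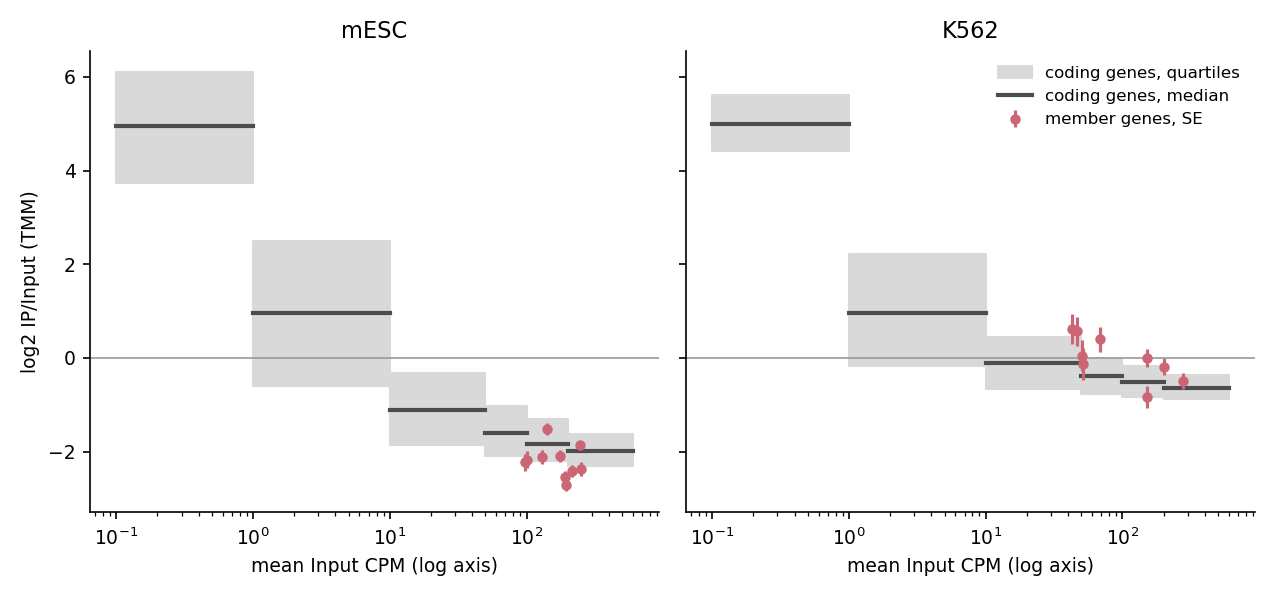
log2 IP/Input against mean Input level in CPM (log axis) in mESC (left) and K562 (right). Dark lines and grey boxes give the median and quartiles of tested protein-coding genes in 6 bins of Input level, the outer bins being open-ended, and red points the members with their SE; the medians fall from 4.95 to -1.99 in mESC and from 4.99 to -0.64 in K562, with members mostly at or below the line in mESC and mostly above it in K562. Genes in the lowest bin could pass the filter on low counts mostly through the IP libraries.

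In K562 the members did not follow that direction. Of 9 tested, 2 were lower in IP and 0 higher, where 16.8% of 14522 tested genes were lower and 15% higher. Those shares are not matched for level. Among K562 coding genes the share called lower was 5.35% at 10 to 50 CPM and 22.2% at 50 to 100 CPM. At 100 to 200 CPM it was 45.3%, and over 200 CPM 74.95%. These bins held 2, 3, 2 and 2 members. The median log2 IP/Input of the members was 0.00 and that of all tested genes -0.17, and without IP replicate 1 the members' median was -0.36. The IP values rested on few reads, from 17 for SRSF7 to 71 for SRSF4 over the 3 libraries. In mESC they ran from 67 for Srsf2 to 219 for Tra2a, so the ranges overlap.

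Both called members were lower. TRA2B (ENSG00000136527.17, chr3:185914558-185938103, GRCh38) had 154.7, 145.0 and 156.2 CPM in Input and 92.6, 107.8 and 96.7 CPM in IP, so its IP libraries lay below its Input libraries (log2 IP/Input -0.83, SE 0.24, edgeR adjusted p = 0.00305). SRSF4 (ENSG00000116350.16, chr1:29147743-29181900) had 277.4, 268.0 and 279.8 CPM in Input and 185.3, 206.7 and 300.7 CPM in IP. One of the 3 IP libraries exceeded every Input library, and the call (log2 IP/Input -0.49, SE 0.17, edgeR adjusted p = 0.0163) was lost without IP replicate 1 (adjusted p = 0.176) or IP replicate 2 (0.127), with RLE scaling (0.108), with scaling by library size (0.261), in DESeq2 (0.105), with thinned Input (0.810) and with either correction for GC content (0.906) or intron length (0.316). TRA2B lost its call with the GC correction (-0.29, adjusted p = 0.451) and with thinned Input (-0.31, adjusted p = 0.583).

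At the other end, SRSF2 (ENSG00000161547.16, chr17:76734115-76737333) had 42.4, 41.5 and 44.6 CPM in Input and 55.6, 107.8 and 64.4 CPM in IP, from 6, 12 and 6 counts. SRSF5 (ENSG00000100650.15, chr14:69726900-69772005) had 45.8, 45.5 and 47.5 CPM in Input and 92.6, 71.9 and 75.2 CPM in IP. Both stood above Input in every IP library, as SRSF3 and SRSF6 did, 4 of 9 members against 22.4% of all tested genes, and TRA2B alone of the 9 lay below Input in every IP library (24.4% of all tested genes). Their log2 IP/Input values of 0.63 (SE 0.32, edgeR adjusted p = 0.126) for SRSF2 and 0.57 (SE 0.31, adjusted p = 0.151) for SRSF5 missed the threshold. Those of SRSF3 (ENSG00000112081.16, chr6:36594353-36605600) at 0.40 and SRSF6 (ENSG00000124193.14, chr20:43457893-43466046) at 0.05 did too. The 95% interval for SRSF2 ran from 0.00 to 1.26, so a rise of more than a log2 of 1 is within it. SRSF2 and SRSF5 passed as higher with the intron length correction and when scaled by library size only, SRSF2 with DESeq2, and SRSF2, SRSF3 and SRSF5 with the GC correction, up to an intron-length value of 1.58 for SRSF2. The direction of the K562 calls therefore depended on the scaling, and the share of all calls that were higher moved from 47.1% to 64.7% with library size scaling alone.

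The remaining K562 members straddled their Input values. SRSF11 (ENSG00000116754.13, chr1:70205682-70253052) had 200.2, 195.0 and 208.6 CPM in Input and 268.7, 179.7 and 161.1 CPM in IP (log2 IP/Input -0.19, SE 0.18). TRA2A (ENSG00000164548.10, chr7:23504780-23532041) had 153.2, 152.0 and 150.0 CPM in Input and 250.1, 134.8 and 139.6 CPM in IP (log2 IP/Input 0.00, SE 0.20). SRSF7 (ENSG00000115875.18, chr2:38743599-38751494) had 51.0, 50.5 and 52.2 CPM in Input and 83.4, 44.9 and 32.2 CPM in IP, from 9, 5 and 3 counts (log2 IP/Input -0.13, SE 0.35). In all 3 genes IP replicate 1 stood above Input and the other 2 IP libraries below it. In their bins of Input level 8 of 9 members lay above the median of coding genes, 6 of them above the upper quartile, and TRA2B lay below the lower quartile.

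Whether the pull-down treated the members differently in the 2 lines was tested directly, as the interaction of line and library kind for genes that share a symbol, with scaling within each line. The IP/Input of 7 of 9 measurable members was higher in K562 than in mESC, and in 0 lower, where 16.6% of 14242 tested genes were higher and 14.5% lower. The median difference was 1.60 on the log2 scale for the members and 0.17 for all tested genes. Srsf5 differed most, at 2.67 (SE 0.42, edgeR adjusted p = 1.19e-05), followed by Srsf2 at 2.24 (SE 0.48, 0.000536) and Srsf3 at 2.20 (SE 0.39, 5.44e-05). Srsf11 (1.74, SE 0.30), Srsf6 (1.60, SE 0.49), Srsf7 (1.34, SE 0.49) and Tra2a (1.24, SE 0.29) also passed. Tra2b at 0.92 (SE 0.43, adjusted p = 0.110) and Srsf4 at 0.40 (SE 0.25, adjusted p = 0.255) did not, and their 95% intervals ran from 0.07 to 1.77 and from -0.10 to 0.89.

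**Figure D4:**
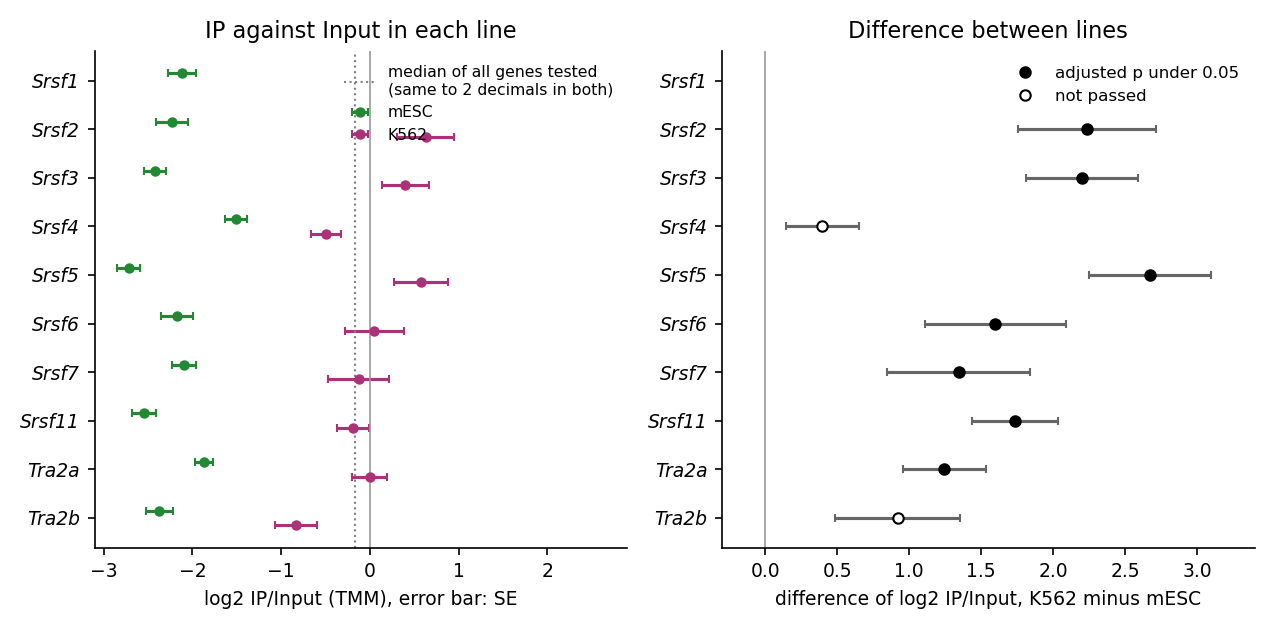
Left, log2 IP/Input of each member in mESC (green) and K562 (purple) with SE, and the median of all genes tested as a dotted line at -0.17. Right, the difference between lines (K562 minus mESC) with SE, filled where the adjusted p was under 0.05; green points lie between -2.72 and -1.51, purple between -0.83 and 0.63, and 7 of 9 differences are filled, from 1.24 to 2.67. Srsf1 has no K562 value.

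Abundant genes as a class also differed in this direction, though by less. By the lower of the 2 lines' Input levels, the median difference was 0.61 for the 1592 genes at 50 to 100 CPM, with 26.4% higher in K562, 0.65 for 1078 genes at 100 to 200 CPM (34.3%) and 0.70 for 637 genes over 200 CPM (51.0%). In these bins 7 of 9 members lay above the upper quartile, Tra2b lay within the quartiles and Srsf4 below its median. Between 4 and 8 of the 9 were called when 1 library was left out, the lowest without K562 IP replicate 1, when Srsf6, Srsf7 and Tra2a were lost. With library size scaling alone 6 were called, and of all calls 40.0% rather than 53.4% were higher in K562. Species, antibody pull-down, depth and annotation change together with the line, so their shares in the difference cannot be told apart.

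Other genes of the splicing machinery were set beside the members by lists. In mESC all were lower in IP with 1 exception: 19 of 19 SR-related genes (median log2 IP/Input -1.97), 20 of 20 core spliceosome genes (-1.79), 17 of 17 hnRNP genes (-2.17), 10 of 10 NMD factors (-1.46), 6 of 6 SR protein kinases (-2.10) and 2 of the 3 SR proteins outside the members. Among all 20244 tested genes 42.1% were lower. Among coding genes it was 66.8% at 10 to 50 CPM, 91.3% at 50 to 100 CPM and 99.4% over 200 CPM. The lists were not matched for Input level. The exception was Srsf12, an SR protein that represses splicing, at 1.54 (SE 0.42, edgeR adjusted p = 0.00303). When IP replicate 1 was dropped, 0 of the 3 SR proteins in this list passed as higher. With thinned Input only 1 of the 3 could be tested, and that gene was lower. Srsf9 was lowest of that list at -3.43 (SE 0.62), Clk4, a kinase that phosphorylates SR proteins, lowest of the kinases at -3.08 (SE 0.23) and Rbm39 lowest of the SR-related genes at -2.48 (SE 0.08). With thinned Input fewer passed as lower, 14 of 19 SR-related (2 were higher), 9 of 20 core spliceosome, 11 of 16 hnRNP, 3 of 9 NMD and 3 of 6 kinase genes, and 6 of 10 NMD factors did with scaling by library size.

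In K562 fewer genes of these lists passed, where 15% of all tested genes were higher and 16.8% lower. Of 16 tested hnRNP genes 5 were higher in IP and 0 lower (median 0.21), of 20 core spliceosome genes 4 higher and 2 lower (0.19), of 19 SR-related genes 2 higher and 7 lower (-0.37), of 9 NMD factors 0 higher and 5 lower (-0.53), of 6 kinases 0 higher and 2 lower (-0.21), and of the 2 other SR proteins none passed. PCBP1, a poly(C)-binding protein from an intronless gene, was highest of the hnRNP list at 1.83 (SE 0.46, edgeR adjusted p = 0.000560), and PNN, a nuclear-speckle protein, highest of the SR-related list at 1.33 (SE 0.20, adjusted p = 2.80e-09). BCLAF1 was lowest of the SR-related list at -1.19 (SE 0.28, adjusted p = 0.000245). The K562 directions moved with the settings: unfiltered counts gave 4 higher and 3 lower hnRNP genes (median -0.12) and 0 higher and 4 lower core spliceosome genes (-0.14), the GC correction 4 higher and 1 lower SR-related genes (0.12), and library size scaling 2 lower NMD factors and 0 kinases. In the difference between lines, where 16.6% of all tested genes were higher, 14 of 17 hnRNP genes (median 1.83), 11 of 20 core spliceosome genes (1.28), 10 of 19 SR-related genes (1.29), 3 of 6 kinases (0.80), 1 of 3 other SR proteins and 1 of 10 NMD factors (0.48) were higher in K562, and 0 were lower. With thinned Input these were 10 of 16, 7 of 19, 6 of 19, 1 of 6, 0 of 1 and 0 of 9, and the intron length correction gave 5 of 10 NMD factors, while DESeq2 gave 1 NMD factor higher and 1 lower. No test between lists was made.

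**Figure D5:**
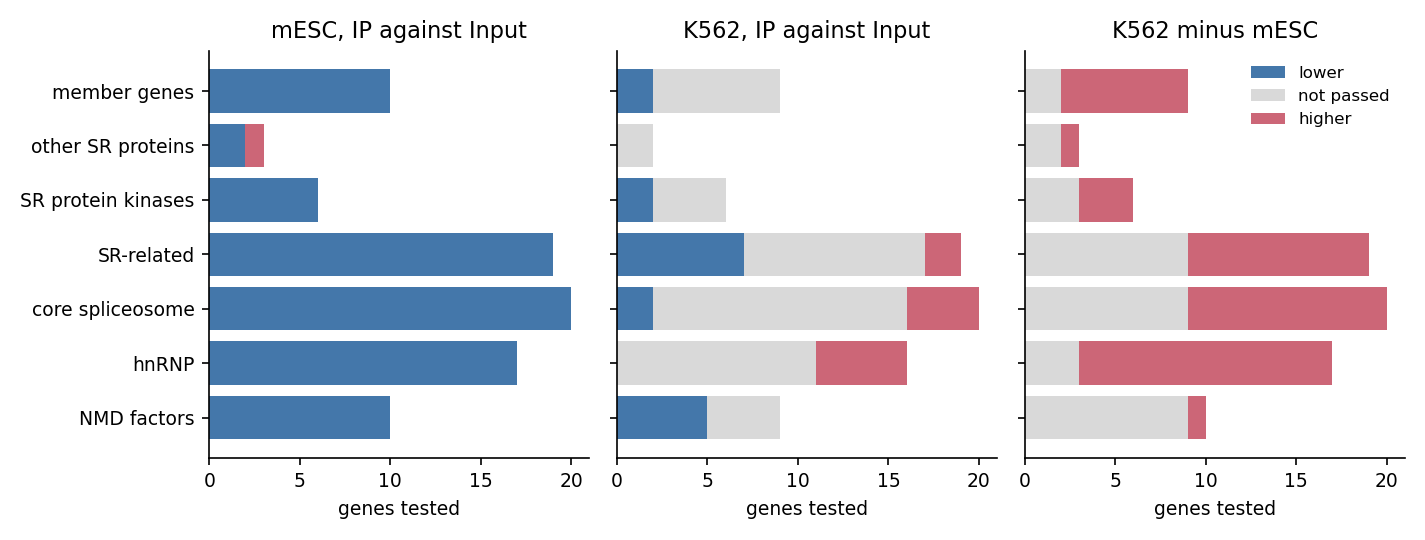
Number of genes tested in each list that were lower (blue), higher (red) or did not pass the test (grey), for mESC IP against Input, K562 IP against Input, and the difference K562 minus mESC. All but 1 of the tested genes are blue in mESC, most are grey in K562, and red is the only called direction in the difference, reaching 14 of 17 for the hnRNP genes and 7 of 9 for the members.

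The share of the gene span that is exonic was looked at because intron reads enter the counts. In mESC the median log2 IP/Input of coding genes was 0.65 where under 10% of the span was exonic, -0.98 at 10 to 25%, -1.08 at 25 to 50% and -1.26 over 50%. In K562 these medians were -0.29, -0.29, -0.09 and 0.07. Over all tested coding genes the relation was weak in mESC (Spearman's rho -0.25, Pearson's r -0.17, 15641 genes) and near 0 in K562 (rho 0.02, r -0.08, 11730 genes). Over the members Spearman's rho between the exonic share and log2 IP/Input was -0.24 in mESC (10 genes) and 0.25 in K562 (9 genes), a description over genes of the same libraries. With intron length corrected for, 10 of 10 members were still lower in mESC, at a median of -1.47 against 0.06 for all genes, and 7 of 9 still higher in K562 than in mESC.

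Peaks called by the authors in the mESC IP libraries were then searched for in the members. Of 11146, 15404 and 15797 peaks in replicates 1 to 3, 3 touched a member, each in 1 replicate alone, and none was recorded on the member's own strand. The study's methods accepted a peak only when every biological sample held it, which none of these 3 meets. Of 2772 protein-coding genes at or above the lowest member's Input level of 96.6 CPM, 54.3% held a peak on either strand and 22.2% on their own strand, but their spans are longer (median 65114 bases against 8987). Per Mb of span, summed over the 3 replicates and either strand, the members had 22.4 peaks and these genes 15.8. The members' rate rests on 3 peaks in 133973 bases, and the difference was not tested. Among all peaks inside a single coding gene, 58.9% to 61.5% were recorded on the other strand, so what the recorded strand stands for is not settled.

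The peak in Srsf5 (replicate 1, chr12:80947527-80947676, GRCm38, recorded on the minus strand) straddled the end of the coding exon chr12:80947496-80947594. Of its 150 bases 68 lay in that exon and 82 in the intron after it, which an annotated retained-intron transcript keeps. The peak in Srsf4 (replicate 3, chr4:131899003-131899152, minus strand) lay in an intron, 910 bp from the nearest exon, and that in Tra2a (replicate 2, chr6:49252360-49252509, plus strand) had 128 bases in the coding exon chr6:49252382-49252515 and 22 outside it. Gm12992, on the strand opposite to Srsf4, shares 2229 bases with it and had 74 Input and 53 IP counts summed over the mESC libraries. Whether the Srsf4 peak came from Gm12992 was not tested. The sequences of the Srsf5 and Srsf4 peaks are written 5′ to 3′ on the recorded strand, opposite to the gene. Cytosine, the base that m5C modifies, is in capitals. On the gene's own transcript these positions are guanines, so they are candidates only if the recorded strand is that of the captured RNA. Cytosine made up 32.0% of the first and 24.0% of the second, and 0 bases of either were repeat-masked.
Srsf5: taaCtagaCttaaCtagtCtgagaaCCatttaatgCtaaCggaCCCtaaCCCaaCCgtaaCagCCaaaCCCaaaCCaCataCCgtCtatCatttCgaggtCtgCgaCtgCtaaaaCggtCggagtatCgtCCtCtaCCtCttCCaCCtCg
Srsf4: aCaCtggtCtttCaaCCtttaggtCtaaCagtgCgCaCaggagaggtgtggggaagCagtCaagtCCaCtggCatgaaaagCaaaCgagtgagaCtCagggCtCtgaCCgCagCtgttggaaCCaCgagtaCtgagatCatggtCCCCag
At the level of the whole gene Srsf5 had the lowest and Srsf4 the highest log2 IP/Input of the members in mESC.

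Genes outside the family came close to the members' profile over all 12 libraries. By Euclidean distance of log2 (CPM per kb + 0.1) to the members' median profile, the 5 nearest of 14242 genes were Pold3 (0.745), Arhgap35 (0.789), Anapc5 (0.841), Ndufa10 (0.883) and Polr2a (0.886), and the nearest member, Srsf3, stood at 1.17, rank 31. Srsf1, without a usable K562 value, was farthest.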

How the data were processed

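m5C was measured by antibody pull-down of caRNA in 3 IP and 3 Input libraries each of mESC and K562. The authors deposited raw gene counts for the 12 libraries and MACS2 peak positions for the mESC IP libraries. Per the labels' processing notes and the study's methods, reads were trimmed (Trimmomatic 0.39) and aligned (HISAT2 2.1.0) to mm10 or hg38. Mapped reads were deduplicated with Picard and split by strand before MACS2 called peaks; whether the counts were made from deduplicated reads is not given in the sources used here. The methods name HTSeq and featureCounts for the RNA-seq libraries and no counter for the m5C libraries. The methods also describe m5C spike-ins, which were not used here. Summary lines (19.0% to 71.7% of records) stayed out of totals.

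Members and gene lists were chosen with earlier results of these data known. All 10 members were named in every comparison, and from each other list at most the genes with the lowest and highest log2 IP/Input at a mean of at least 5 CPM. Identifiers were matched to GENCODE M21 (99.9%) and 44 (99.2%), later releases than the authors used, so spans can differ. Counts were tested in edgeR 4.0.16 (R 4.3.3; quasi-likelihood, TMM within a line, filterByExpr, two-sided, Benjamini-Hochberg over all tested genes at 0.05); SE is the absolute log2 value over the square root of F. For the difference between lines, factors were set within each line. Factors over all 12 libraries together were an alternative, with 4407 genes called against 4418. DESeq2 was an alternative, for the difference only on genes with a mean of at least 10 counts in each line. Bases came from the reference genomes (samtools 1.23.1) and identities from global alignment (Biopython 1.88). The self-test ran on simulated counts. Printed 95% intervals are normal-theory bounds from the SE and include the spread between libraries; floors of 3 counts cover counting error only.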

Additional observations from a re-analysis of the deposited data

Results flagged for a closer look

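The IP/Input of 7 members differed between the cell lines by the interaction test, edgeR with Benjamini-Hochberg adjustment over 14242 genes, and was higher in K562 each time, where 16.6% of all tested genes were higher and 14.5% lower, and 26.4% to 51.0% of genes at the members' Input level were higher. On the log2 scale Srsf5 differed by 2.67 (SE 0.42), Srsf2 by 2.24 (SE 0.48), Srsf3 by 2.20 (SE 0.39), Srsf11 by 1.74 (SE 0.30), Srsf6 by 1.60 (SE 0.49), Srsf7 by 1.34 (SE 0.49) and Tra2a by 1.24 (SE 0.29). The K562 IP counts behind them ran from 17 for SRSF7 to 64 for SRSF11 over 3 libraries. Depth, species and annotation differ with the line, and their part in the difference cannot be told apart.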

How the results depend on the processing

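In mESC 10 of 10 members were called lower under every alternative but 1, and 8 with Input thinned to IP depth, where Srsf4 changed sign (0.046). In K562, 2 calls became 1 with RLE scaling and 0 with thinned Input (4 members tested), and 1 to 2 when a library was left out, 1 without IP replicate 1 and 1 without IP replicate 2. SRSF4 changed sign there with the GC correction (0.044) and thinned Input (0.12). Library size scaling alone and the intron length correction each gave 1 lower and 2 higher, DESeq2 1 and 1, the GC correction 0 and 3, and no filter on low counts 3 and 0, so the K562 calls are not stable. For the difference, 5 (thinned Input) to 8 (replicate block) were called with all libraries kept, 4 without K562 IP replicate 1 and up to 8 otherwise when 1 library was left out. TMM factors over all 12 libraries together gave 7. The cause was not tested. The intron length correction, the span-based level, the common TMM factors and all alternatives for the splicing lists were added after seeing the data.

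Whether the same replicate numbers pair the libraries was not settled. Deviations from group means of same-numbered libraries correlated at 0.00193 to 0.0148 (6 pairs), and those of different-numbered libraries at -0.0141 to 0.00650. At the low IP depth counting error can hide a pairing, so these values cannot exclude it. With the replicate block 10 were called in mESC, 2 in K562 and 8 in the difference, Tra2b being added at 0.99 (adjusted p = 0.0220).

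Input levels moved by over 1 SD in 30 of 60 mESC and 26 of 54 K562 alternatives. The count of member peaks went from 0 on the gene strand to 3 on either strand. The other peak settings can only remove peaks and could not move a count of 0. Low IP depth limits the K562 values most.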
